A study of Mus musculus with 2 samples.

Results

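Genomic imprinting leaves a gene active mainly on the copy inherited from 1 parent. A list of 34 imprinted mouse genes was followed in polyadenylated RNA of adult lung. The genes were taken by symbol: 33 of the 34 had a row in both gene tables, among 43346 gene rows, and these 33 genes had 200 annotated transcripts. The identifier of Peg13 had no row, and Peg13 was not analysed here. The members held 0.192% of gene counts in replicate 1 and 0.169% in replicate 2. Per the labels, both libraries came from lung of C57BL/6J mice at 8 weeks of age, from littermates of both sexes pooled, with no treatment or genotype named. They form 1 group of 2 libraries, replicate 1 and replicate 2, so no contrast between conditions and no p-value is given. The donor record is the same for both, the tissue samples are separate, and the number of animals is not given, so how much of the spread is technical is unknown. C57BL/6J is an inbred strain whose parental copies carry the same sequence, so these values are levels of both copies together and do not measure parental origin.

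Imprints are set as DNA methylation in the egg or the sperm, at control regions that govern whole clusters of genes. Within a cluster, long noncoding RNAs and protein-coding genes are often active on opposite parental copies, and CTCF binding or transcription of the noncoding RNA keeps the neighbours silent. Many imprinted genes act on fetal growth, the paternally expressed ones often promoting and the maternally expressed ones often restraining it, and many are turned down after birth in organs such as the lung.

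The sequences below are the windows at annotated starts of 5 members whose levels or start usage carry the results: Gnas, Mest, Nnat, Igf2 and Peg3. They were taken from RefSeq on GRCm38.p6, run from 250 bases before to 50 after the start, read 5′ to 3′ on the strand of the gene, and are in lower case with every CG dinucleotide, the unit that carries methylation, in capitals.
Gnas, Nesp start, chr2:174284070-174284369 (+ strand): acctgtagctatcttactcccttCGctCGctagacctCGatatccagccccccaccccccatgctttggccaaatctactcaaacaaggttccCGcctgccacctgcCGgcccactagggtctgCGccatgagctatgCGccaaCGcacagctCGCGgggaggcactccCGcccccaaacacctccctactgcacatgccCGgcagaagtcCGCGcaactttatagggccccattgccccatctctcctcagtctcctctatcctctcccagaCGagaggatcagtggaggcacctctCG
Gnas, start in the place known for exon 1A, chr2:174327499-174327798 (+ strand): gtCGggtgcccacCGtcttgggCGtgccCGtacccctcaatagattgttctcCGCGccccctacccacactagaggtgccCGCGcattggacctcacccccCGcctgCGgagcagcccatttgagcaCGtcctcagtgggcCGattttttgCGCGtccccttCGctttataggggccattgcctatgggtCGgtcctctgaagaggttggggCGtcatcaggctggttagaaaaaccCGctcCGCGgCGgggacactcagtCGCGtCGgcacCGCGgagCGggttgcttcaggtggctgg
Gnas, Gs-alpha start, chr2:174329756-174330055 (+ strand): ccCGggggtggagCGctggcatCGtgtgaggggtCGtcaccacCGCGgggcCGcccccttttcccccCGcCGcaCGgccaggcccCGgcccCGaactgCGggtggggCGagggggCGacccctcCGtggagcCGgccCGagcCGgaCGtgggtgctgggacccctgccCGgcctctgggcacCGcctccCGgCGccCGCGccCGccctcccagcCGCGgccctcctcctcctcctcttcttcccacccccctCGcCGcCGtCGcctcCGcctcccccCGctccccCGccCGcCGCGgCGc
Mest, chr6:30737800-30738099 (+ strand): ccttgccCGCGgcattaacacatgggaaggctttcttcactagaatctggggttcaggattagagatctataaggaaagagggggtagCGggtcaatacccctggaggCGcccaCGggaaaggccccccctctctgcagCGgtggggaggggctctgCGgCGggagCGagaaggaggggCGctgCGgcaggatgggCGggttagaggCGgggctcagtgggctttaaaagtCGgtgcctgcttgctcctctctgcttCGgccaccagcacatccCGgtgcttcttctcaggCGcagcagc
Nnat, chr2:157559828-157560127 (+ strand): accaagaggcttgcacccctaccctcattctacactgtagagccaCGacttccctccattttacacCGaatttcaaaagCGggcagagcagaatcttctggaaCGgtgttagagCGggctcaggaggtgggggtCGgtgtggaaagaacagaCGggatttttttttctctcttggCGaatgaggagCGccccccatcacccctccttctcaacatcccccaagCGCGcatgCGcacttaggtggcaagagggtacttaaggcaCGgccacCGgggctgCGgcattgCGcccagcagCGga
Igf2, most upstream start, chr7:142666767-142667066 (- strand): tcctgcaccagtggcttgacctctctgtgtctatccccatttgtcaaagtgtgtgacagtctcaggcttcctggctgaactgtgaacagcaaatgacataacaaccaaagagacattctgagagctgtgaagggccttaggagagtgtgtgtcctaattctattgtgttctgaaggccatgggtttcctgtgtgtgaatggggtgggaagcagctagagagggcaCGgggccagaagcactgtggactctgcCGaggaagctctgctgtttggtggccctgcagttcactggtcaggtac
Igf2, inner start, chr7:142657447-142657746 (- strand): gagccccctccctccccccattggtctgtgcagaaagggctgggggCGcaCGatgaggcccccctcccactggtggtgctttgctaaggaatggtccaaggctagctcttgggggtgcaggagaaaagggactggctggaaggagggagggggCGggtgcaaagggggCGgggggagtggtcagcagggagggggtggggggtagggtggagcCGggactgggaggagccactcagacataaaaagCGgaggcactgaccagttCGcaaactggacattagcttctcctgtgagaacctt
Peg3, chr7:6730370-6730669 (- strand): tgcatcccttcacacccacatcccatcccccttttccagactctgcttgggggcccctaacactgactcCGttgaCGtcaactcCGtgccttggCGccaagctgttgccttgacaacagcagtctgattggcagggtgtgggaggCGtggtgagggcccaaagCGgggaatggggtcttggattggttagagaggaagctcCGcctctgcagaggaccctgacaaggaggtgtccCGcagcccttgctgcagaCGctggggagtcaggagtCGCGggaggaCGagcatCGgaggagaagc

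The 3 Gnas windows held 16, 27 and 40 CG dinucleotides, in the order printed. The Mest and Nnat windows held 17 each and the Peg3 window 13, whereas the Igf2 windows held 2 and 7. RefSeq windows were given for 26 members, 41 windows in all. H19, Rtl1, Cdkn1c, Peg10, Sgce, Impact, Nespas and Peg13 have no window here. The median CG count was 11 over the 41 windows and 7 over all 32851 windows of the table. The hexamer TGCCGC, the methylated target of the imprint-keeping factor ZFP57, was searched on both strands and was present in 9 of the 41 windows (22.0%), of 8 members, and in 11.6% of all windows. The Mest window held it at positions 9 and 184 from its 5′ end, and the Nnat window at position 278. The hexamer contains a CG, and the part of CG content in these shares was not tested. TATAAA, the core of a TATA box, was likewise searched on both strands and was present in 22.0% of the member windows and 13.6% of all windows. These shares include matches that read TTTATA on the strand of the gene, opposite to the direction of a TATA box. The matches in the Gnas windows with 16 and 27 CG dinucleotides are of that kind. Windows of the same gene can overlap, and a match is a run of letters, not a bound site.

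H19 and Mest also host microRNAs, miR-675 in an exon of H19 and miR-335 in an intron of Mest. Their mature forms are printed from RefSeq with the seed, bases 2 to 8, in capitals.
mmu-miR-675-5p: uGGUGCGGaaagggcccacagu
mmu-miR-675-3p: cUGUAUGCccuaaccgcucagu
mmu-miR-335-5p: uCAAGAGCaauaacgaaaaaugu
mmu-miR-335-3p: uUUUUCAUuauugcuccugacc

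None of these 4 seeds was shared with another mature mouse microRNA of the table. The hairpin of miR-675 lies in the first exon of H19 transcripts that held 76.5% of H19 TPM in replicate 1 and 100% in replicate 2. The hairpin of miR-335 lies in an intron of Mest transcripts that held 6.56% and 4.43% of Mest TPM. By counts the same transcripts had 736 of 1939 in replicate 1 and 327 of 1195 in replicate 2. No exon of a Mest transcript with annotated coordinates held the hairpin. A further Mest transcript, with 11.24% of Mest TPM in replicate 1 and 12.98% in replicate 2, had no annotated coordinates. Its place relative to the hairpin is unknown, so these intron shares and counts may be incomplete. Mirg hosts 14 hairpins on its own strand and Rian 3, whereas Rtl1 has 6 hairpins on the opposite strand. The 77 rows of microRNA and small nucleolar RNA genes at member loci had an effective length of 0 and no counts in either library, so libraries of RNA over 200 nt gave no measure of them.

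Gene counts summed to 48234745 in replicate 1 and 44182836 in replicate 2. Lung epithelium markers were all detected, with a summed level of 153666 and 164749 TPM in replicates 1 and 2. Endothelial markers summed to 1585 and 1639 TPM and fibroblast markers to 2043 and 2061 TPM, and none of the 17 markers of these 3 lists was 2-fold apart. Markers of other tissues did differ. Each of the 8 skeletal muscle markers exceeded 2-fold toward replicate 1, with sums of 2829 and 60.5 TPM and Myh2, Myh4 and Tnnc2 at 0 in replicate 2. All 5 oesophageal markers were too, with 4043 and 0.59 TPM and Krtdap and Krt6a at 0 in replicate 2, and 3 of 4 testable brown adipocyte markers, with 281 and 49.0 TPM. In the other direction, all 5 white adipocyte markers were higher in replicate 2, 4 of them by 2-fold or more (100 and 253 TPM). All 5 erythroid markers (22915 and 63391 TPM) exceeded 2-fold toward replicate 2. So did all 5 intestine and pancreas markers (3.62 and 177 TPM, with Sycn and Ctrc at 0 in replicate 1). In bulk tissue, fewer cells of a type and less RNA per cell cannot be told apart.

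Most imprinted genes were present at low to middle levels. A gene was counted as detected at 1 TPM (the authors' transcript level per length and library total) or more in both libraries, a threshold that 32.0% of all gene rows, 60.5% of protein-coding rows and 7.36% of long noncoding rows reached. Of the 33 members, 24 were detected, 20 of 26 protein-coding and 4 of 7 noncoding. Among genes usually expressed from the paternal copy 14 of 20 were detected, and among those usually expressed from the maternal copy 7 of 10. The 3 genes whose parental bias depends on tissue or promoter, Gnas, Grb10 and Ube3a, were all detected. H19 passed 1 TPM in replicate 1 alone, and 8 members were under 1 TPM in both: Dlk1, Rtl1, Usp29, Zim1, Ascl2, Kcnq1ot1, Magel2 and Nespas. Gnas alone gave 57.6% of the summed TPM of the members in replicate 1 and 64.1% in replicate 2.

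**Figure D1:**
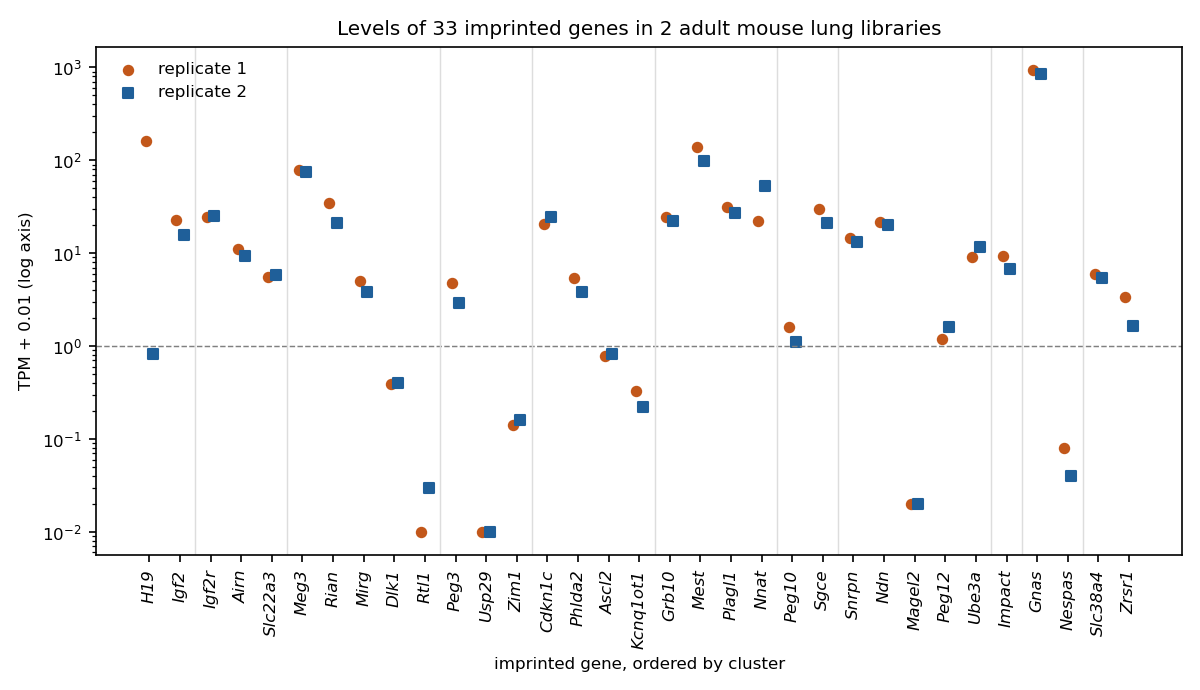
Level of each of the 33 imprinted genes in each library, as TPM plus 0.01 on a log axis, with circles for replicate 1, squares for replicate 2, grey lines between clusters and a dashed line at 1 TPM. Gnas lies highest at 934 and 839 TPM, the paired symbols mostly lie close together, and H19 spans from 162 to 0.81 TPM.

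Between the libraries, most imprinted genes differed by less than 2-fold, with a spread close to that of genes in general. The log2 ratio is replicate 2 over replicate 1, of counts scaled by the TMM method (trimmed mean of M-values), and a gene was called different at 2-fold or more with a mean count of at least 50. Of the 26 members with such counts, 2 were called: H19 toward replicate 1 and Nnat toward replicate 2. Over all 14708 genes of the same count, 6.66% were called, 4.45% higher in replicate 1 and 2.21% higher in replicate 2. With a mean count minimum of 10 the call held for 2 of 29 members and 10.1% of all genes, and with no minimum for 4 of 33 members and 7.51% of all gene rows. The members split into 13 higher in replicate 2 and 13 lower. Their median absolute log2 ratio was 0.294, beside 0.278 over all genes. The median log2 ratio was -0.00235 over the members and -0.0022 over all genes. Paternally expressed members had a median of -0.251 and maternally expressed members of 0.0867, with 8 of 15 and 4 of 8 testable members lower in replicate 2. Scaling by library size moved the median of all genes to -0.137 and that of the members to -0.137, and 7 members were then higher in replicate 2. On the log2(TPM + 0.1) scale the medians were -0.206 and -0.229, and 6 members were higher in replicate 2. The members whose direction depended on the scaling were Airn, Gnas, Meg3, Ndn, Peg10, Slc38a4 and Snrpn.

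**Figure D2:**
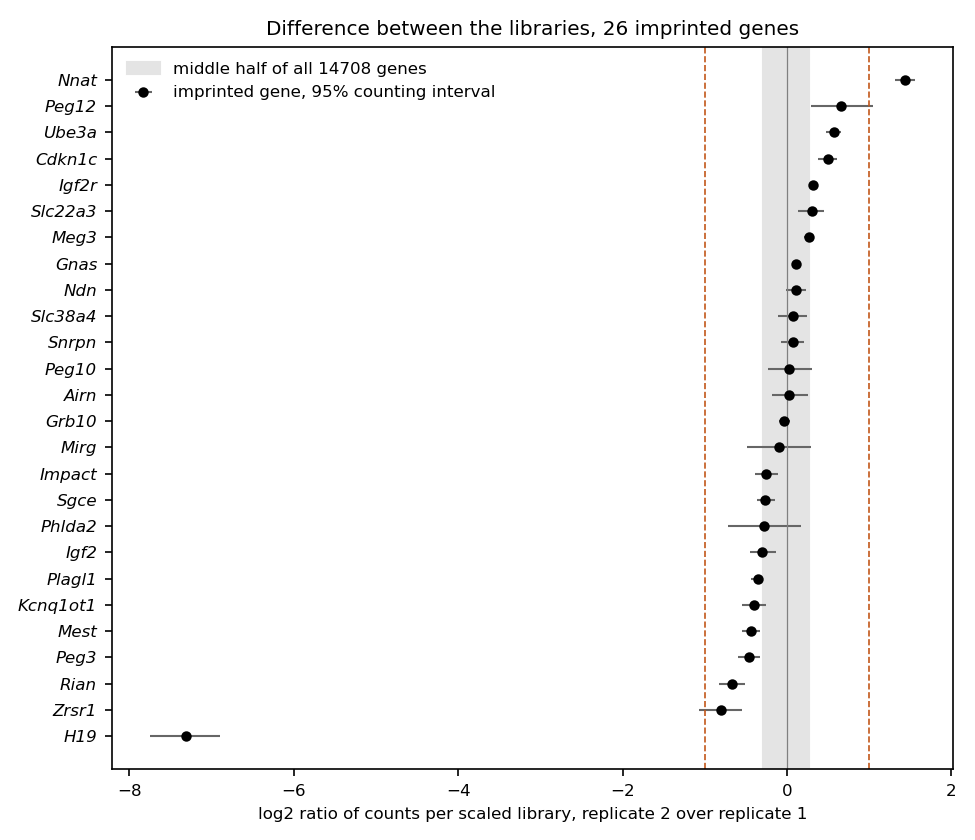
Log2 ratio of counts per scaled library, replicate 2 over replicate 1, for the 26 imprinted genes counted at 50 or more on average; points are single genes, bars the exact 95% interval for counting error, the grey band the middle of all 14708 genes (-0.293 to 0.266) and dashed lines 2-fold. H19 lies far left and Nnat right of the lines, and the other 24 points lie between them.

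H19, the maternally expressed long noncoding RNA that is abundant in fetal tissue, gave the widest difference of the 26. H19 (ENSMUSG00000000031.11, mm10 chromosome 7, 142575529 to 142578143, minus strand) had 9109 counts and 162 TPM in replicate 1, and 48 counts and 0.81 TPM in replicate 2. Its counts per scaled library were 158-fold higher in replicate 1, with an exact Clopper-Pearson 95% interval of 119 to 215 that, like all intervals here, covers counting error only. The difference touched transcripts from both groups of H19 starts. The upstream group had 4336 and 4 counts, which is 904-fold (353 to 3321), and the group inside the gene had 44 counts left in replicate 2 from 4773 in replicate 1, which is 90.5-fold (67.3 to 125). Transcripts of both groups overlap, so the split of counts, 4.25 and 43.75 in replicate 2, is the authors' estimate. The intervals do not cover that split, so these folds do not separate one group of starts from the other. H19 is the member for which a mean over both libraries, 81.6 ± 114 TPM (SD, n = 2), describes neither library.

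Igf2, the paternally expressed fetal growth factor that shares enhancers with H19, did not follow it. Igf2 (chromosome 7, 142650766 to 142666816, minus strand) had 808 and 550 counts in replicates 1 and 2, and 22.5 and 15.8 TPM. It was 1.23-fold higher in replicate 1 (1.10 to 1.37), a log2 ratio of -0.29 against -7.25 for H19. H19 thus stood at 7.20 times the TPM of Igf2 in replicate 1 and at 0.0513 times in replicate 2. With all counts on the longest transcript, H19 had 121 and 0.655 TPM and Igf2 had 4.96 and 3.46 TPM. The order of H19 and Igf2 held in each library, while the size of the ratio depends on transcript length. The most upstream Igf2 start, whose window is printed first of the Igf2 pair, held 41.4% and 39.1% of Igf2 TPM. The inner start of the other window held 7.94% and 8.68%, and a short noncoding transcript, Igf2-208, held 42.6% and 45.7%. The share of each start differed by at most a few percentage points between libraries, while the start at 142659489 had 140 and 64 counts, 1.82-fold higher in replicate 1 (1.35 to 2.49). These counts too rest on the authors' split among overlapping transcripts, which the interval does not cover. By counts rather than TPM the most upstream start held 149 and 96 reads and the inner start 226 and 152, since its transcripts are longer.

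The genes within 200 kb of H19 were read after its values were seen. Tnni2, fast skeletal troponin I, ends about 131 kb from H19, at 142444410, and had 3717 and 38 counts, 81.6-fold higher in replicate 1 (59.3 to 116). Tnnt3, fast skeletal troponin T and a marker in the muscle list, had 1412 and 54 counts (21.8-fold, 16.6 to 29.2). Nctc1, a noncoding RNA 16.9 kb from H19, had 113 counts in replicate 1 and 0 in replicate 2, at least 31.4-fold higher, taking 3 counts as what a 0 allows. Syt8 had 139 and 6 counts. Between these lie genes that differed little: Lsp1, Mrpl23 and the more distant Ctsd had log2 ratios of -0.15, -0.17 and -0.13. On the other side, the antisense gene Igf2os had 10 and 15 counts and the insulin gene Ins2 had 0 and 3. The skeletal muscle list, 2829 TPM in replicate 1 and 60.5 TPM in replicate 2, moved the same way as H19, and so did the oesophageal and brown adipocyte lists. Their part in the H19 difference was not tested.

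**Figure D3:**
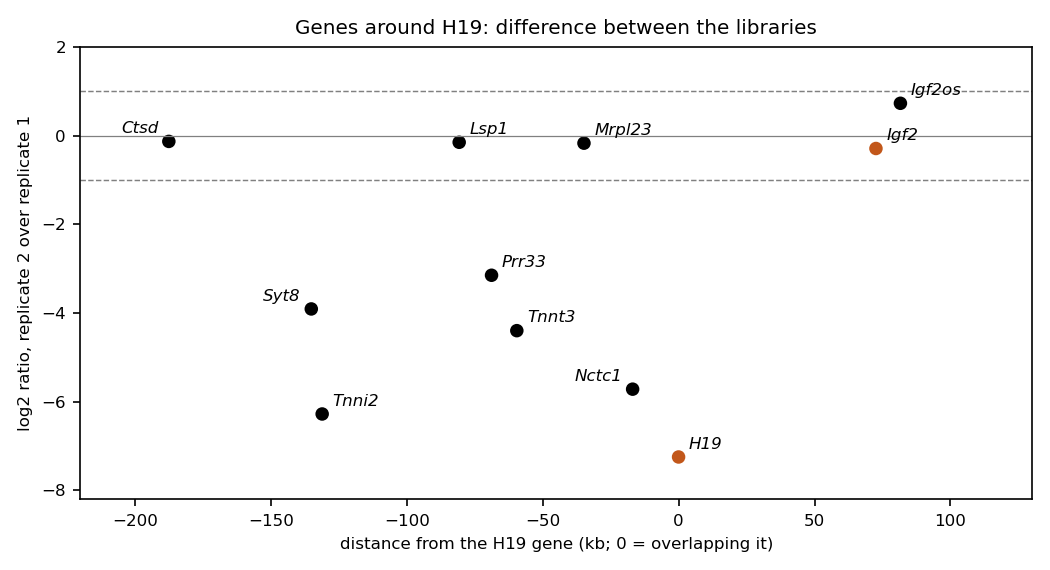
Log2 ratio, replicate 2 over replicate 1, of genes within 200 kb of H19 against distance from the H19 gene in kb; orange points are imprinted members, black points other genes, and dashed lines 2-fold. H19 at -7.25, Nctc1, Tnnt3, Tnni2, Syt8 and Prr33 lie far below 0, while Ctsd, Lsp1, Mrpl23 and Igf2 lie near it; the fitted value of Nctc1 depends on the prior count, since 1 library is at 0.

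Gnas was the most abundant member, and its starts differed more between the libraries than its total. Gnas (ENSMUSG00000027523.15, chromosome 2, 174284320 to 174346744, plus strand) encodes the Gs alpha subunit that couples receptors to adenylyl cyclase, and alternative first exons give the neuroendocrine protein NESP55, the XL alpha s form and the noncoding exon 1A transcript. Its level was 934 TPM in replicate 1 and 839 TPM in replicate 2, 887 ± 67.1 TPM (SD, n = 2), at the percentile 99.8 of all gene rows. Its counts were 1.08-fold higher in replicate 2 (1.07 to 1.10). The group of Gs alpha starts, from 174330006 to 174330287, held 65.1% and 77.2% of Gnas TPM. The counts of this group, 33204 and 34653, were 1.25-fold higher in replicate 2 (1.23 to 1.27). Its leading transcript, Gnas-208, held 51.8% and 58.5% and starts at 174330089, past the end of the third printed Gnas window at 174330055. Gnas-207, which starts inside that window at 174330006, held 6.72% and 12.7%. The start in the place known for exon 1A held 33.6% and 22.0%, with 14234 and 8484 counts, 1.40-fold higher in replicate 1 (1.36 to 1.44). These starts share downstream exons, so their split is the authors' estimate.

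The Nesp start of Gnas, known as active on the maternal copy, was a small share of the gene and far apart between the libraries. It had 397 counts and 4.87 TPM in replicate 1, and 11 counts and 0.14 TPM in replicate 2, a 30.1-fold difference (16.6 to 60.8). That is 0.521% and 0.0167% of Gnas TPM, and the split from the other starts is again the authors' estimate. Neuronal and neuroendocrine markers, the usual setting of NESP55, summed to 8.12 and 8.39 TPM, with 0 of 3 testable members 2-fold apart. The skeletal muscle, oesophageal and brown adipocyte lists were higher in replicate 1, as the Nesp start was, and their part in it was not tested. Transcripts from the XL start had 5.82 and 1.38 estimated counts, too few for a comparison. Nespas, the paternally expressed antisense RNA of the same start, had 5 counts and 1 count, or 0.07 and 0.03 TPM, and reads of the overlapping strands cannot be told apart unless counting used strand, which the sources used here do not state.

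**Figure D4:**
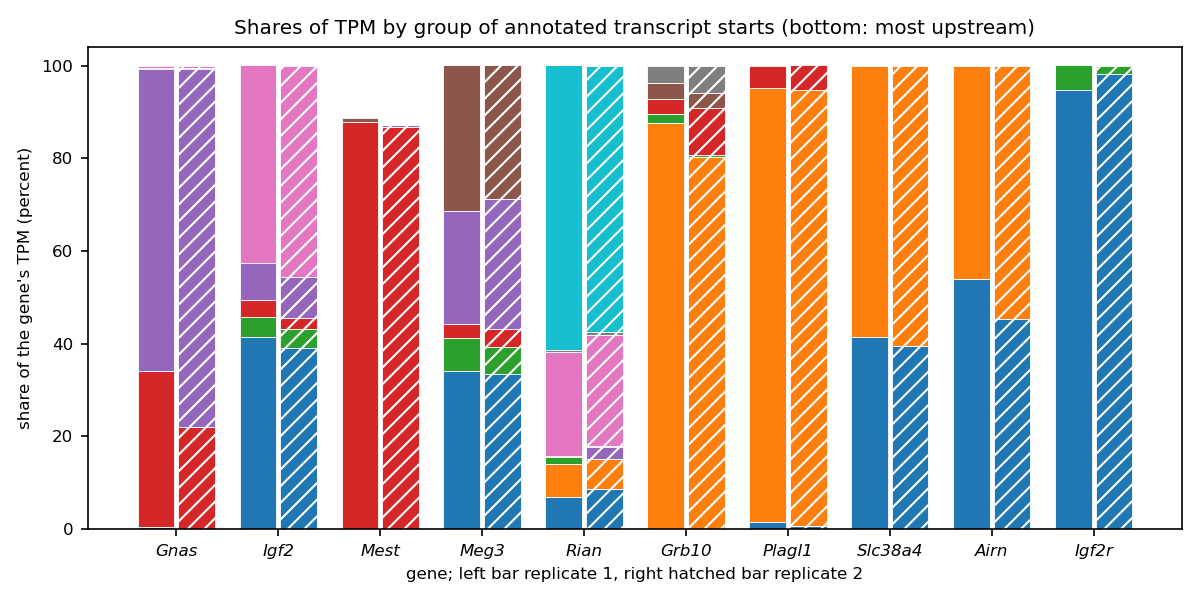
Share of each gene's TPM, in percent, by group of annotated transcript starts within 500 bp of each other, stacked with the most upstream group at the bottom and each colour a separate group; plain bars are replicate 1 and hatched bars replicate 2. Gnas shifts from 33.6% to 22.0% for its exon 1A group, whereas the groups of Slc38a4, Igf2 and Mest keep similar heights; the Mest bars stop short of 100 because transcripts that do not match the later annotation have no start.

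Nnat was the member called higher in replicate 2. Nnat (ENSMUSG00000067786.12, chromosome 2, 157560078 to 157562522, plus strand) encodes neuronatin, a small membrane proteolipid of the endoplasmic reticulum first known from brain and also found in adipose tissue and pancreatic islets. It had 795 counts and 22.4 TPM in replicate 1, and 1793 counts and 52.9 TPM in replicate 2. The difference was 2.70-fold (2.49 to 2.94), with a log2 ratio of 1.43. All of its TPM came from a single group of starts, from 157560078 to 157560140. Nnat-202, which starts in the printed window, held 75.9% and 75.5% of it. The window ends at 157560127, before the starts of Nnat-204 (3.79% and 5.19%) and Nnat-201 (0% and 0.7%). Its host Blcap, in whose intron it lies, had 43.7 and 38.4 TPM and a log2 ratio of -0.04, so Blcap stood at 1.95 times the level of Nnat in replicate 1 and at 0.726 times in replicate 2. The white adipocyte list (100 and 253 TPM) and the intestine and pancreas list (3.62 and 177 TPM) were higher in replicate 2 as well. So were the erythroid list (22915 and 63391 TPM) and the mesothelium list (163 and 200 TPM, 1 of 4 markers 2-fold apart), and the neuronal list was level at 8.12 and 8.39 TPM. The part of these lists in the Nnat difference was not tested.

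In the Igf2r cluster both the receptor gene and its silencing RNA were detected. Igf2r, the receptor that removes IGF2 for degradation and is maternally expressed, had 24.4 and 25.0 TPM, or 24.7 ± 0.403 (SD, n = 2), and 7286 and 7523 counts. Per scaled library, the Igf2r counts were 1.24-fold higher in replicate 2 (1.20 to 1.28). Airn, the paternally expressed noncoding RNA that silences Igf2r in cis, had 11.1 and 9.35 TPM from 374 and 319 counts. Igf2r stood at 2.20 and 2.67 times the TPM of Airn. By counts, which are not corrected for length, the mean ratio was 21.5 in place of 2.44. The Airn row holds transcripts of at most 1375 nt from a span of 12741311 to 12860136, so unspliced RNA of that span was not measured by it. Airn overlaps Igf2r on the opposite strand, and Kcnq1ot1 below overlaps Kcnq1 in the same way, so the limit given for Nespas holds for both. Airn divided between starts at its annotated 5′ end, with 54.0% and 45.3% of its TPM, and a start further inside, with 46.0% and 54.7%. Slc22a3, an organic cation transporter imprinted in placenta, had 5.53 and 5.80 TPM from 657 and 673 counts.

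In the Dlk1 to Meg3 cluster the 3 maternally expressed noncoding RNAs were detected and the paternally expressed coding genes were below 1 TPM. Meg3, a long noncoding RNA, had 79.1 and 75.0 TPM from 3616 and 3629 counts. Per scaled library, the Meg3 counts were 1.20-fold higher in replicate 2 (1.15 to 1.26), whereas its TPM was lower there. On its longest transcript the mean level of Meg3 was 7.08 TPM and that of Rian 2.52 TPM, so their high TPM rests on short transcripts. Rian, the host of small nucleolar RNAs, had 34.4 and 20.9 TPM from 931 and 489 counts, 1.59-fold higher in replicate 1 (1.42 to 1.78). Mirg, the host of the microRNA cluster, had 5.01 and 3.78 TPM. Meg3 stood at 2.30 and 3.59 times the TPM of Rian and at 15.8 and 19.8 times that of Mirg, so the level was lower the further along the cluster the gene lies, in both libraries. Dlk1, a NOTCH-like membrane protein of fetal tissues and preadipocytes, had 18 and 22 counts, or 0.38 and 0.39 TPM. Rtl1, a retrotransposon-derived gene needed in placenta, had 0 and 4 counts. Meg3 was at 208 and 192 times the TPM of Dlk1. Its leading transcript was Meg3-204 in replicate 1, at 28.4% of Meg3 TPM, and Meg3-208 in replicate 2, at 28.0%.

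The Kcnq1 cluster showed its growth-restraining genes at unlike levels. Cdkn1c, the cyclin-dependent kinase inhibitor p57, had 20.5 and 24.6 TPM from 1259 and 1476 counts, 1.41-fold higher in replicate 2 (1.30 to 1.52). Phlda2, which limits placental growth, had 5.41 and 3.83 TPM from 107 and 74 counts. Ascl2, a transcription factor of trophoblast and intestinal stem cells, had 39 and 40 counts, or 0.77 and 0.81 TPM. Kcnq1ot1, the paternally expressed noncoding RNA that silences this cluster, had 975 and 616 counts but 0.32 and 0.21 TPM, since its row is 84395 nt long. Its low TPM therefore does not mean few reads: it was 1.32-fold higher in replicate 1 (1.19 to 1.46). Cdkn1c was at 64.1 and 117 times the TPM of Kcnq1ot1.

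In the Peg3 cluster the paternally expressed zinc finger gene Peg3 led, at 4.77 and 2.88 TPM. Its 1332 and 805 counts were 1.38-fold higher in replicate 1 (1.26 to 1.51), and Peg3-201, from the printed window, held 82.4% and 85.5% of its TPM. Zim1, a maternally expressed zinc finger gene, had 15 counts in each library, or 0.13 and 0.15 TPM. Peg3 was at 36.7 and 19.2 times its TPM. Usp29, a ubiquitin-specific protease gene that starts back to back with Peg3, had 0 counts in both, which allows up to 0.0346 and 0.0354 TPM. The Usp29 row holds a single transcript of 2610 nt that begins at 6961160 in the later annotation, away from the start next to Peg3, so RNA of its upstream exons was not measured by this row.

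Peg10 and Sgce also start back to back and are both paternally expressed, yet Sgce was the higher. Sgce, epsilon-sarcoglycan, had 1568 and 1094 counts, with 29.6 and 21.0 TPM, 1.20-fold higher in replicate 1 (1.11 to 1.29). Peg10, a retrotransposon-derived gene of the placenta, had 1.59 and 1.10 TPM from 258 and 220 counts. Sgce stood at 18.6 and 19.1 times the TPM of Peg10. By counts the pair differed slightly between the libraries, with log2 ratios of -0.26 for Sgce and 0.03 for Peg10.

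The cluster linked to Prader-Willi and Angelman syndromes held both well expressed and silent genes. Ndn, necdin of the MAGE family, had 21.6 and 19.9 TPM, and its neighbour and relative Magel2 had 1 and 2 counts. Snrpn, a spliceosomal protein, had 14.6 and 13.1 TPM, all of it on 1 transcript. Ube3a, the ubiquitin ligase that is maternally expressed in neurons and active from both copies elsewhere, had 9.18 and 11.6 TPM from 1620 and 2004 counts, 1.48-fold higher in replicate 2 (1.39 to 1.58). Snrpn was therefore at 1.59 times Ube3a in replicate 1 and 1.12 times in replicate 2. Peg12, a relative of the Frat inhibitors of GSK3, had 1.17 and 1.59 TPM from 103 and 136 counts, 1.58-fold higher in replicate 2 (1.22 to 2.06). Frat1 was at 4.03 and 5.70 times the TPM of Peg12 and was itself 2.25-fold higher in replicate 2, and Frat2 was at 2.48 and 2.53 times.

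Mest had the highest deposited TPM of the imprinted genes that stand alone, an order that its short transcripts decide. Mest, a hydrolase-like protein of the mesoderm, had 138 and 97.4 TPM, or 117 ± 28.4 (SD, n = 2), from 1939 and 1195 counts, 1.35-fold higher in replicate 1 (1.26 to 1.46). The start group of the printed window held 87.9% and 86.8% of its TPM, most of it on the 417 nt Mest-204, with 81.4% and 82.6%. The level of Mest depends on that short transcript: with all counts on the longest transcript of each gene it was 18.7 TPM, below Nnat at 29.4 TPM and Grb10 at 20.6 TPM. Mest stood at 12.4 and 13.1 times its neighbour Copg2.

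Grb10 and Plagl1 both act on growth signalling. Grb10, an adaptor that dampens insulin and IGF1 receptors, had 24.3 and 22.1 TPM from 3929 and 3197 counts, a log2 ratio of -0.04, and Grb10-201 held 87.6% and 80.3% of it. Plagl1, a zinc finger factor that restrains the cell cycle, had 31.0 and 26.8 TPM from 3520 and 2289 counts, 1.28-fold higher in replicate 1 (1.22 to 1.35). Its start group at 13090691 on chromosome 10 held 93.5% and 94.0% of its TPM, although the share of the leading transcript, Plagl1-202, was 58.1% in replicate 1 and 29.7% in replicate 2.

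Impact, Slc38a4 and Zrsr1 were lower. Impact, which holds back the kinase GCN2, had 9.42 and 6.76 TPM. Slc38a4, a neutral amino acid transporter of liver and placenta, had 5.97 and 5.41 TPM from a pair of starts that held 41.4% and 58.6% in replicate 1 and 39.6% and 60.4% in replicate 2. Zrsr1, a splicing factor copy inside an intron of Commd1, had 3.38 and 1.65 TPM from 375 and 179 counts, 1.75-fold higher in replicate 1 (1.46 to 2.10). Among the 24 members between the 2-fold lines, it was the furthest toward replicate 1. Its host Commd1 had 514 and 450 counts and a log2 ratio of 0.07, against -0.80 for Zrsr1, so by counts the host did not share the difference. By TPM, which depends on the split among Commd1 transcripts, Commd1 stood at 2.60 and 2.68 times Zrsr1. Zrsr2, the gene from which Zrsr1 was copied, stood at 3.57 and 5.52 times its TPM. The counts of Zrsr1, Meg3, Snrpn and Gnas were not within 0.02 of whole numbers in both libraries; the cause was not tested.

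Transcript use was alike in both libraries for most members. Of the 17 detected members with more than 1 transcript, 16 kept the same leading transcript by TPM, Meg3 being the exception. In 12 of the 17 the leading transcript by counts was also the leading transcript by TPM in both libraries, and the others, such as Rian and Slc38a4, have shorter transcripts that weigh more per length. Placed on the longest transcript, the mean level was 7.08 rather than 77.0 TPM for Meg3, 2.52 rather than 27.6 TPM for Rian, 4.21 rather than 19.2 TPM for Igf2 and 342 rather than 887 TPM for Gnas. These levels therefore rest on how the authors divided reads among transcripts.

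Genes listed as imprinted outside the 34 were also present, and whether they are imprinted in lung was not measured. Of 50 listed, 48 had rows and 31 were detected, beside 60.5% of protein-coding rows and 32.0% of all gene rows. The highest were Cd81, a tetraspanin of the Kcnq1 cluster, at 507 and 570 TPM, Dcn at 131 and 93.6 TPM, H13 at 111 and 139 TPM and Bcl2l1 at 100 and 110 TPM. Of the 36 with enough counts, 2 were called, both higher in replicate 1: Zdbf2 with 89 and 19 counts (3.91-fold) and Asb4 with 83 and 26 counts (2.66-fold). Over all genes of that count, 6.66% were called and 4.45% were higher in replicate 1, so the share here is near that of genes in general. The median log2 ratio of the 36 was -0.0501.

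Factors listed as acting on imprints or on DNA methylation, not all of which keep imprints, were mostly detected. Of 18 listed, 15 were at 1 TPM or more in both libraries, beside 60.5% of protein-coding rows. None of the 15 was called, beside 6.66% of all genes with enough counts. They split into 13 lower and 2 higher in replicate 2, with a median log2 ratio of -0.148. Trim28, the corepressor that ZFP57 recruits, was the highest at 189 and 158 TPM. Dnmt1, the maintenance methyltransferase, had 18.5 and 16.2 TPM, Tet3 had 18.3 and 14.1 TPM and Ctcf had 15.9 and 16.0 TPM. Ctcfl and Dppa3, known from the germ line and early embryo, had no counts in either library.

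Genes of the IGF axis, in which Igf2, Igf2r and Grb10 act, were detected in 13 of 15 cases, beside 60.5% of protein-coding rows. Igfbp7 had 2228 and 4440 TPM and was 2.33-fold higher in replicate 2, and Igfbp3, another binding protein, had 48.9 and 105 TPM and was 2.13-fold higher in replicate 2. Igfbp4 had 424 and 422 TPM, but its counts, 22106 and 31245, were 1.69-fold higher in replicate 2 (1.67 to 1.72). Igfbp2 had 273 and 419 TPM and Igfbp6 had 298 and 373 TPM, and their counts were 1.80-fold and 1.46-fold higher in replicate 2. Igfbp7 and Igfbp3 were the 2 called of the 13, beside 6.66% of all genes called and 2.21% higher in replicate 2. The median log2 ratio of the 13 was 0.168, and -0.0295 on the log2(TPM + 0.1) scale.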

How the data were processed

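Polyadenylated RNA over 200 nt of 2 mouse lung libraries was sequenced as stranded 76 nt paired ends, per the labels. The authors deposited, for each gene and each transcript, expected counts, which are estimated fragment numbers. Per the file headers, the same tables give TPM and FPKM, which correct for transcript length and for the library total. The share of each transcript in its gene, in percent, and the bounds of a TPM interval were deposited by the authors as well. Reads were aligned to mm10 and assigned to GENCODE M4, per the deposited file lists; the sources used here do not state the aligner, the quantifier, their versions or the use of strand in counting. Rows without a gene (26248, with 0 and 2 counts) and spike-ins (1.44% and 1.03% of counts) were left out.

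Symbols and gene coordinates came from GENCODE M21 on mm10, which matched 196 of the 200 member transcripts. Expected counts were rounded. Log2 ratios are CPM ratios from edgeR 4.0.16 in R 4.3.3 (TMM, prior count 2). Folds are counts over TMM-scaled library sizes with exact Clopper-Pearson 95% intervals, and 0 counts were taken to allow 3. Other steps used Python 3.11.15. The script for the log2 ratios was tested on simulated counts, whereas the folds and their intervals were not.

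The members, the lists and the rules were chosen with earlier results of these data known. Every member is named, and of each further list the 4 genes of highest mean TPM and those called 2-fold. Genes around H19 and single starts were chosen after their values were seen. Alternatives covered thresholds, FPKM, scaling (DESeq2 1.42.0, library size), pseudocounts, count minimums and either library left out; placing counts on the longest transcript was added after seeing the data. Contigs and junctions on mm9 were not used here.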

Additional observations from a re-analysis of the deposited data

How the results depend on the processing

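The number of detected members, 24, was 26 at 0.5 TPM, 18 at 5 TPM, 22 with FPKM, 23 by the lower bound of the deposited interval, and 24 to 25 with either library left out. H19 and Nnat were called under every scaling, pseudocount and count minimum run. With no count minimum, 4 members were called, adding Nespas and Rtl1, which have at most 5 counts, where 7.51% of all rows were called. Among other imprinted genes, 5 in place of 2 were called with a mean count minimum of 10, where 10.1% of all genes were. The median log2 ratio of the members ranged from -0.229 to 0.0318. The log2 ratio of 12 of 32 members moved beyond the counting interval with library size scaling, and of 18 of 32 on the log2(TPM + 0.1) scale. The level of 20 of 32 moved by more than the spread with FPKM, and of 14 of 32 on the longest transcript. Within a library FPKM was a fixed multiple of TPM, a change of unit. Neither this 20 nor the 22 detected with FPKM therefore measures dependence on the processing. No result reversed among those with a called value.

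No paired analysis was possible because the series has 1 group. The 2-fold counts and ratios could not be computed from a single library. Members under about 50 counts, such as Dlk1, Ascl2 and Zim1, allow no fine comparison. The deposited TPM of Dlk1, Rtl1, Usp29 and Plagl1 in replicate 1, and of Dlk1 and Usp29 in replicate 2, lies outside its own deposited interval. The cause was not tested. For Gnas in replicate 1, TPM and upper bound were both 934 after rounding, which does not place it inside or outside.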
